A study of Mus musculus with 4 samples.

Results

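Cells that grow need cholesterol for their membranes and long fatty acids for their phospholipids, and they build both from acetyl-CoA. The transcripts of that synthesis were compared here between mouse embryonic stem (ES) cells and neurospheres, which are floating clusters grown from neural stem and progenitor cells. The genes described are 34 that encode enzymes of sterol synthesis, enzymes of fatty acid synthesis, elongation and desaturation, and the regulators of these pathways. They were chosen by pathway, with results from these arrays already known, so their levels are given as a description with no test. Every probe set annotated to exactly 1 of the 34 gene symbols was taken. The array, an Affymetrix MG_U74Av2, measured 27 of the 34 genes in this way, with 40 probe sets in all. Of these, 25 genes and 34 probe sets reached the median signal of at least 1 array, among 6843 genes and unnamed probe sets that did so (features, below). Hsd17b7 and Sc5d, both enzymes of the late cholesterol pathway, stayed under that median on every array. Pmvk, Acat2, Srebf2, Stard4, Fads2, Acaca and Acss2 have no probe set of their own and were not analysed here.

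The series holds 4 arrays, each hybridised with total RNA. R1, an established mouse ES cell line derived from the inner cell mass, was grown in DMEM with leukaemia inhibitory factor (LIF) and beta-mercaptoethanol on 3 of them. On 1 array these cells were attached to gelatin under conditions for undifferentiated growth (adherent). On the other 2 the cells had grown as embryoid bodies for 48 hours without attachment, with LIF still present. Those 2 arrays are titled aggregation and suspension and carry the same sample number, and no label says that they came from separate cultures. Their difference may therefore be technical, and it is the only measure of spread within a group. The neurospheres came from the telencephalon of E13.5 embryos and were grown with FGF2 in a medium named DMEM0 F12, and their label lists astrocytes, glia and oligodendrocytes as contaminating cells. Neurospheres and adherent cells have 1 array each. Cell type and culture medium differ together between neurospheres and R1 cells, so they cannot be told apart.

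Sterol synthesis starts with the mevalonate pathway, which makes the isoprenoid units for squalene and also for prenyl anchors on proteins. Squalene is then closed to lanosterol and trimmed, reduced and isomerised to cholesterol. Most of these enzymes are controlled together by the SREBP transcription factors, which are held in the endoplasmic reticulum while sterol is plentiful and are released when it falls. In fatty acid synthesis, ATP-citrate lyase supplies acetyl-CoA, acetyl-CoA carboxylase and fatty acid synthase build palmitate, elongases lengthen it, and desaturases add the double bonds. In the developing brain most cholesterol is made on site, because lipoproteins of the blood do not cross into the tissue.

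Signals are MAS5 intensities on a linear scale, brought to one trimmed mean of 500 on every array because the deposited arrays had trimmed means from 29.5 to 1490.0. Before scaling, the mean was 32.5 on the aggregation array and 29.5 in neurospheres, but 1485 on the suspension array and 1490.0 in adherent cells. The embryoid body pair was thus deposited on unlike scales, and the part of this in its spread was not tested. After this scaling the median signal of an array lay between 178 and 242, and the 10th percentile between 17.4 and 33.8. The adherent array had the lowest value of both. Differences are on the log2(signal + 32) scale, which understates changes of dim genes, and a gene with several probe sets is given by its brightest one. The signals of pluripotency markers, summed over 8 genes, were 60422, 68528 and 58876 on the aggregation, suspension and adherent arrays and 1856 in neurospheres. A dimmer probe set of Pou5f1, not in that sum, had 262, 196 and 99.5 on those R1 arrays and 277 in neurospheres. Summed signals of the 6 neural stem and radial glia markers past the filter were 1079, 630.0 and 581 on the same R1 arrays and 51828 in neurospheres, of which Fabp7 gave 41867. Of these 6, 4 were at least 2-fold above every R1 array, and Fabp7, Ptprz1 and Hes5 passed the filter through neurospheres alone. Msi1 had 228, 282 and 55.5 in R1 cells and 172 in neurospheres. Pax6 did not reach the median signal of any array. In bulk RNA, fewer cells of a type and less RNA per cell cannot be told apart.

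In neurospheres 15 of the 25 genes exceeded every R1 array by at least 2-fold, against 9.18% of all features. None was at least 2-fold lower than every R1 array, against 9.37% of features, although Lbr met that limit, as 1 gene, when the aggregation array was left out. By any amount, 20 lay above all 3 R1 arrays, where 35.0% of features did, and Lbr lay below all 3, as did 2193 of the 6843 features. The median difference of neurospheres from the R1 cultures was 1.63 over the 25 genes and 0.10 over all features. The limma fit across all features placed 17 of the 25 higher at an adjusted p under 0.05, against 8.20% of features, and 1 lower, against 11.9%. Nothing is read from those counts here, since the genes were named with this contrast in view. Mvd was the last gene inside the 2-fold limit, at 1.18 above the highest R1 array, and Tm7sf2 the first outside it, at 0.90. Dhcr7, which is among the 15, reached the median signal on the neurosphere array alone. A stricter signal filter dropped it and left 14 of 24 genes at least 2-fold above every R1 array.

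**Figure D1:**
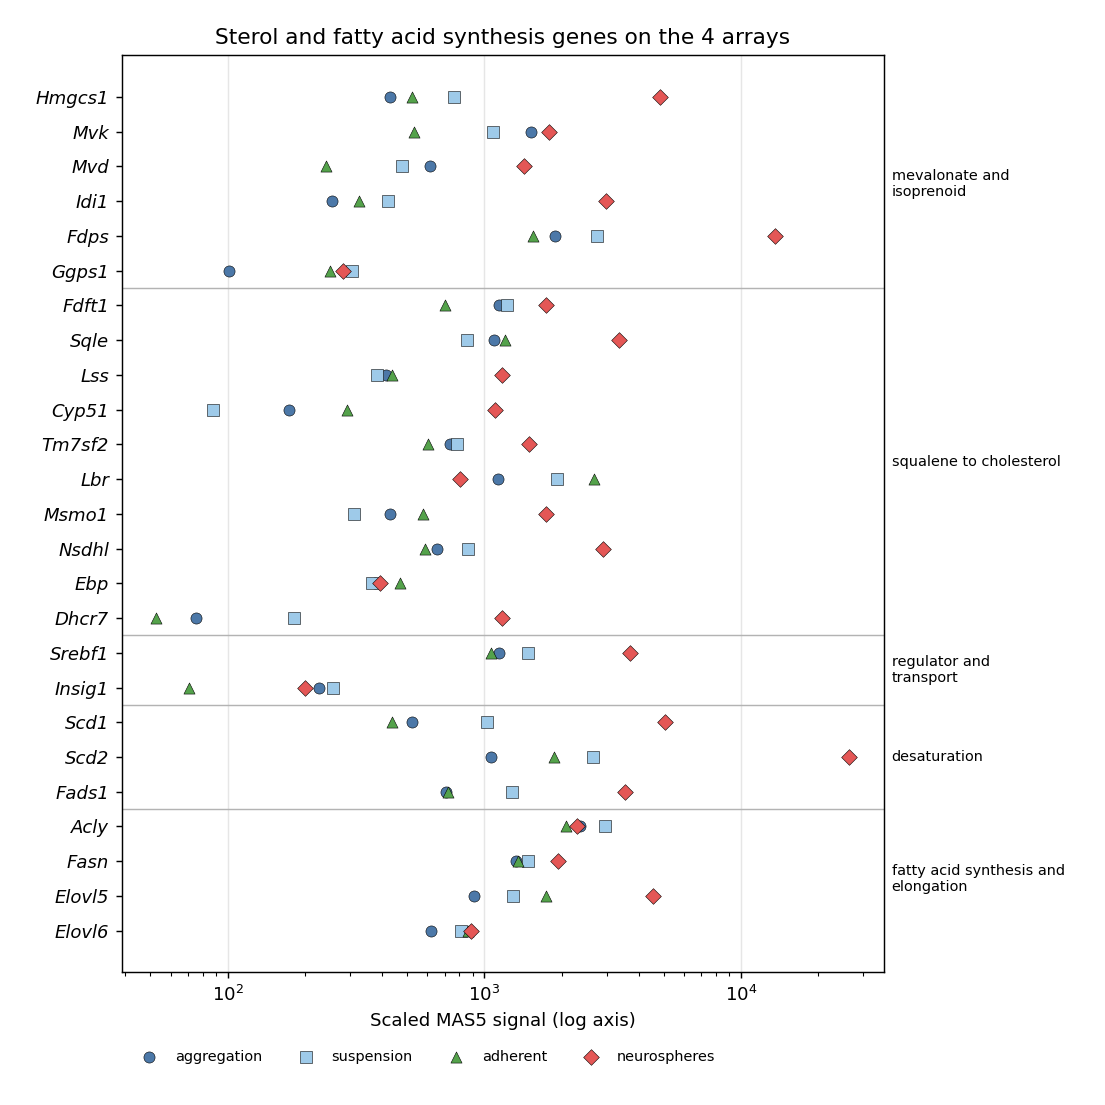
Scaled MAS5 signal (horizontal log axis) of 25 genes, 1 per line and grouped by step, on the aggregation, suspension, adherent and neurosphere arrays; each point is 1 array. Neurospheres are the rightmost point for 20 genes, and Lbr is the gene with neurospheres leftmost.

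The 6 measured genes of the mevalonate and isoprenoid steps had a median difference of 2.35, and 4 of them were at least 2-fold above every R1 array. Hmgcs1, the synthase that makes HMG-CoA, had signals of 428 on the aggregation array, 762 on the suspension array, 523 in adherent cells and 4824 in neurospheres. That is 6.33 times its highest R1 signal, and the log2 differences from the single R1 arrays ran from 2.61 to 3.40. Mvd, the decarboxylase that ends the mevalonate branch, was at 612, 480.0 and 241 on the same R1 arrays and at 1423 in neurospheres, 2.32 times the highest. In Mvd the R1 arrays themselves spread, with adherent cells lowest. Idi1, the isomerase of isopentenyl diphosphate, was at 255, 421 and 326 in R1 cells and at 2982 in neurospheres, 7.08 times the highest R1 signal. Fdps, which joins isoprenoid units to farnesyl diphosphate, was bright in all samples. It had 1883, 2741 and 1552 in R1 cells and 13584 in neurospheres, 4.96 times the highest. The 2-fold limit itself places the neurosphere signal of these 4 genes outside the R1 range.

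Mvk and Ggps1 behaved differently from those 4. Mvk, mevalonate kinase, was at 1525 on the aggregation array, 1080.0 on the suspension array, 531 in adherent cells and 1793 in neurospheres. Neurospheres were thus only 1.18 times the aggregation array, and the differences from single R1 arrays ran from 0.23 to 1.70. This rests on 1 probe set. The other Mvk probe set, under the median on every array, had neurospheres at 4.49 times the highest R1 signal, with differences of 1.63 to 1.92. Ggps1 makes geranylgeranyl diphosphate, the prenyl donor, and so lies beside the route to cholesterol. Its signals were 101, 304 and 251 in R1 cells and 281 in neurospheres, which places neurospheres inside the R1 range.

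From squalene to cholesterol, 10 genes passed the signal filter. Their median difference was 1.51, and 6 of them were at least 2-fold above every R1 array. Sqle, the epoxidase that commits squalene to sterols, was at 1089, 857 and 1199 in the aggregation, suspension and adherent R1 cells and at 3353 in neurospheres. Lss, which closes the ring to lanosterol, was at 414, 381 and 438 in R1 cells and at 1167 in neurospheres. Lss had the narrowest spread of the 6, with differences from single R1 arrays of 1.35 to 1.54. Cyp51, the lanosterol demethylase, was at 174, 87.8 and 291 in R1 cells and at 1101 in neurospheres, 3.78 times the highest.

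The enzymes that remove the methyl groups next to the sterol hydroxyl were higher as well. Msmo1, the methyl oxidase, had 429, 309.5 and 576 in R1 cells and 1739.6 in neurospheres. Nsdhl, the dehydrogenase that acts after it, had 657, 866 and 585 in R1 cells and 2909 in neurospheres. For Msmo1 and Nsdhl neurospheres were at 3.02 and 3.36 times the highest R1 signal. Dhcr7, the reductase of the last step to cholesterol, was dim in R1 cells, at 75.6, 182 and 52.7, and reached 1175 in neurospheres. This was the largest difference among the sterol enzymes, 3.41, with 2.50 to 3.83 over the single R1 arrays. Dhcr7 passed the signal filter through the neurosphere array alone, where it was high.

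The sterol reductase that follows Cyp51 is encoded by a pair of genes, Tm7sf2 and Lbr, which differed in opposite directions. Tm7sf2, an enzyme of the endoplasmic reticulum, was at 736, 780.4 and 603 in R1 cells and at 1488 in neurospheres, a difference of 1.10. Lbr, a protein of the inner nuclear membrane that carries the same reductase activity and also binds lamin B and chromatin, was at 1130.1, 1913 and 2684 in R1 cells and at 807 in neurospheres. Its difference was -1.27, and it was the only one of the 25 genes with neurospheres below every R1 array. The Lbr signals of the R1 arrays also differ, with adherent cells highest and the aggregation array lowest, so the distance of neurospheres from single R1 arrays ran from -0.47 to -1.69. Tm7sf2 has a second, dimmer probe set, at 77.1, 148 and 62.0 in R1 cells and 1143 in neurospheres, whose difference of 3.36 is in the same direction and far larger.

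Fdft1 and Ebp differed least among the enzymes of this stretch. Fdft1 makes squalene from farnesyl diphosphate, and its signals were 1144, 1226 and 704 in R1 cells and 1745 in neurospheres, 1.42 times the highest. Ebp, the sterol isomerase, was at 376, 365 and 469 in R1 cells and at 393 in neurospheres, which lies within the R1 range. Hsd17b7, the last enzyme of demethylation, did not exceed 62.7 on any array. Sc5d, a sterol desaturase, is measured by a pair of probe sets that both stayed under the median. The first did not exceed 72.4, and the other had 34.3, 28.9 and 29.2 in R1 cells and 179 in neurospheres.

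**Figure D2:**
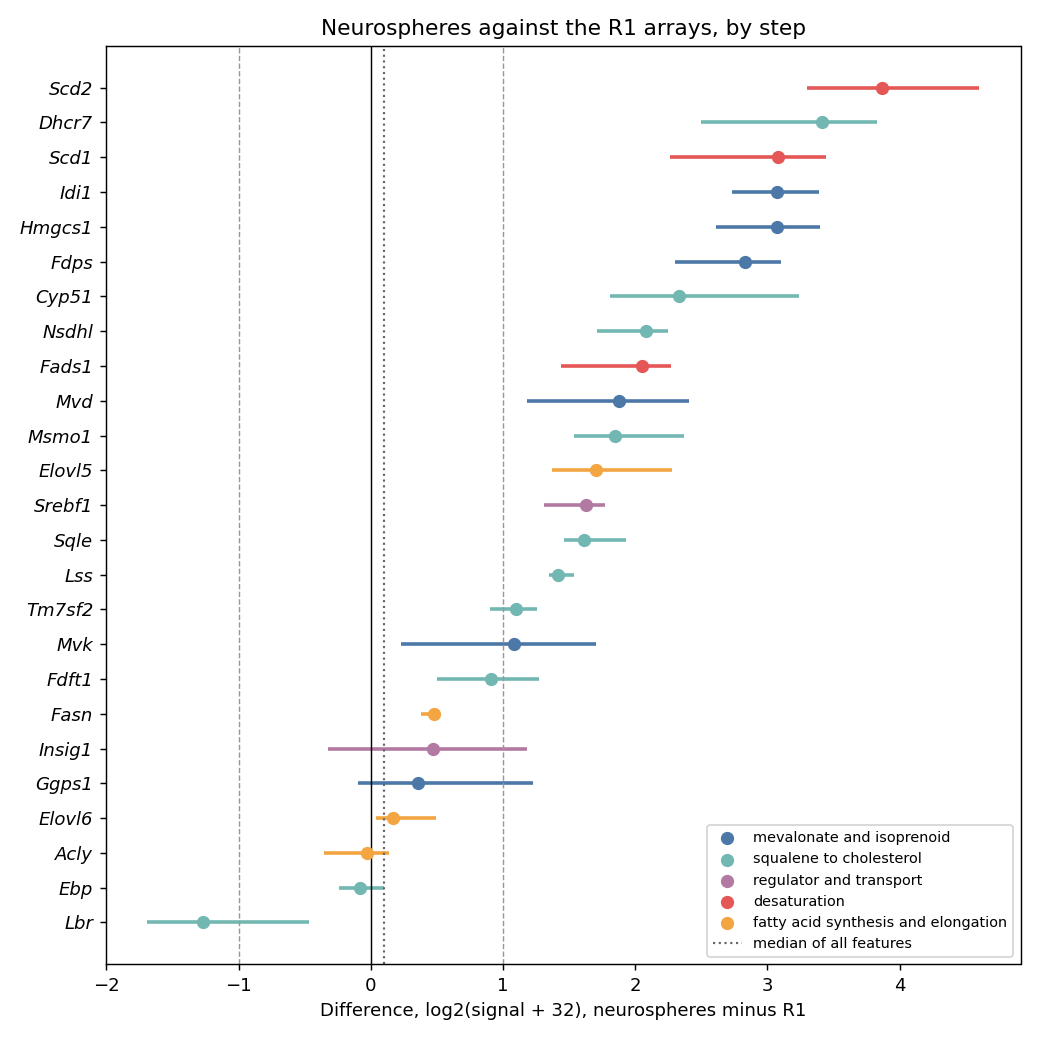
Difference of neurospheres from the R1 cultures on the log2(signal + 32) scale (horizontal axis) for 25 genes, ordered by size and coloured by step; the point is the difference from an R1 level that weights embryoid bodies and adherent cells equally, and the bar its range over the 3 R1 arrays. Dashed lines mark 2-fold, and 15 genes have their whole bar beyond the right one; the dotted line is the median of all features, 0.10.

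The stretches just before the start sites of several of these genes are shown because sterol genes share a promoter plan that is known for its sterol response element, bound by SREBP, next to a CCAAT box, bound by NF-Y, and a GC box, bound by Sp1. They are RefSeq promoters on the mouse build GRCm38.p6, printed on the gene's strand and ending at the base before the annotated start. For a gene with several promoters, the one with a CCAAT box nearest before the start was taken. Stretch lengths were set gene by gene. Each stretch was thus chosen to hold a CCAAT box, and nothing is read from its presence there. The other Dhcr7 promoters searched held none. Capitals mark the CCAAT box and the GC box (GGGCGG), each on either strand. In Hmgcs1 they also mark TCACCCCAC, a match to the sterol response element in its wider form. The first 5 genes were at least 2-fold higher in neurospheres, Lbr was lower, and Fasn was higher by less than 2-fold.
Hmgcs1, chr13:119690201-119690350, plus strand: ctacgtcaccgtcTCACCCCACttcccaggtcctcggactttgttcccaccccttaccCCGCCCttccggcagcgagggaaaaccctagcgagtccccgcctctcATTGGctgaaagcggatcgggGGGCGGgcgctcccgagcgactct
Idi1, chr13:8885516-8885605, plus strand: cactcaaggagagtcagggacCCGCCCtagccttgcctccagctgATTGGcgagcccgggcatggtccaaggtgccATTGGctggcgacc
Cyp51, chr5:4104698-4104787, minus strand: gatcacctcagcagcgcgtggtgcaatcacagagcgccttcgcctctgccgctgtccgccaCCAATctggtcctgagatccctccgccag
Dhcr7, chr7:143830124-143830213, plus strand: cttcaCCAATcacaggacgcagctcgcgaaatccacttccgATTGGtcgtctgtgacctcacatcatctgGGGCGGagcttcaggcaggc
Nsdhl, chrX:72918401-72918520, plus strand: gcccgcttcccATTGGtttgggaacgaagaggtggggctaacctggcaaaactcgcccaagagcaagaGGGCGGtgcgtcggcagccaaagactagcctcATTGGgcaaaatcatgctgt
Lbr, chr1:181842402-181842491, minus strand: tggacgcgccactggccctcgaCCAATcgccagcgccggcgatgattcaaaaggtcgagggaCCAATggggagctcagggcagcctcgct
Fasn, chr11:120824548-120824657, minus strand: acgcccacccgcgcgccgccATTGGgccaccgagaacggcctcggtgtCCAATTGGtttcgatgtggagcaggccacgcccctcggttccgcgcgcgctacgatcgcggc

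Of the 27 genes on the array, 21 had a RefSeq promoter in the table used, reaching from 250 bases before the start to 50 after it. Fdps, Fdft1, Sqle, Scd1, Scd2 and Fads1 had none, so no measured desaturase is covered. CCAAT, searched on both strands, was in 20 of the 21 (95.2%), against 43.4% of the 4839 named genes past the signal filter that had a promoter and 37.4% of all promoters. Of the 15 genes that were 2-fold higher in neurospheres, 10 had a promoter, and CCAAT was in all 10. It was in 8 of the 9 others past the filter, so its presence did not separate them. Lbr, which was lower in neurospheres, holds 2 within the stretch shown, and in Fasn the match at -62 shares bases with the one at -59. GGGCGG was in 17 of 21 promoters (81%), against 68.6% of the named genes past the filter. The E box CACGTG was in 5 of 21 (23.8%), against 12.5% of those named genes. The wider sterol response element, TCACNCCAC with N for any base, was found in Hmgcs1 alone, starting at -137, where 1.69% of the named genes past the filter hold it. These matches describe letters in the windows, and windows without a match say nothing about binding.

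Among the regulators, Srebf1 and Insig1 passed the filter. Srebf1 encodes the SREBP that is best known for driving fatty acid genes, and its signals were 1146, 1474 and 1059 in the aggregation, suspension and adherent R1 cells and 3694 in neurospheres. Neurospheres were 2.51 times the highest R1 array, with differences of 1.31 to 1.77 from single arrays. Insig1, which holds the SREBP escort protein in the endoplasmic reticulum and is itself a known SREBP target, followed another order. Its signals were 227 on the aggregation array, 258 on the suspension array, 201 in neurospheres and 70.6 in adherent cells. The neurosphere value was thus below both embryoid body arrays and above adherent cells, and Insig1 did not follow the sterol enzymes. Srebf2, the paralog best known for the sterol genes, has no probe set of its own.

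All 3 measured desaturases were at least 2-fold above every R1 array, with a median difference of 3.08. Scd1 and Scd2 place the first double bond into saturated fatty acids, and Scd2 is the form best known from embryo and brain. Scd2 had signals of 1058 on the aggregation array, 2651 on the suspension array, 1875 in adherent cells and 26437 in neurospheres. At 9.97 times the highest R1 signal and a difference of 3.87, with 3.30 to 4.60 over single arrays, it was the largest of the 25 genes. Scd1 had 521, 1027 and 436 in R1 cells and 5043 in neurospheres, 4.91 times the highest. Fads1, which adds a double bond to polyunsaturated fatty acids, had 709, 1287 and 723 in R1 cells and 3547 in neurospheres, 2.76 times the highest. In all 3 genes the suspension array was the highest of the R1 arrays and still below neurospheres. Fads2, which works with Fads1, has no probe set of its own.

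The genes that make and lengthen saturated fatty acids were closer between the groups, with a median difference of 0.32 over 4 genes. Fasn, fatty acid synthase, had 1334, 1478 and 1354 in R1 cells and 1929 in neurospheres. Its neurosphere signal was 1.31 times the highest R1 signal, and the difference of 0.48 varied little over single arrays, from 0.38 to 0.52. Acly, ATP-citrate lyase, was bright and level, at 2358, 2951 and 2087 in R1 cells and 2303 in neurospheres, inside the R1 range. Elongases split. Elovl5, which lengthens polyunsaturated fatty acids, had 909, 1296 and 1735 in R1 cells and 4522 in neurospheres, 2.61 times the highest. Elovl6, which lengthens palmitate to stearate, had 621, 814 and 864 in R1 cells and 887 in neurospheres. The Elovl6 difference of 0.17 was -0.08 when arrays were scaled to their medians, so it has no settled direction.

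The steps thus differed in how many genes passed the 2-fold limit, with 10 of 16 sterol enzymes, 3 of 3 desaturases and 1 of 4 genes of fatty acid synthesis and elongation, against 9.18% of all features. Their median differences were 1.73, 3.08 and 0.32. No test was made between the steps, because the genes were chosen with these values known and each step holds few genes.

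Several genes have more than 1 probe set, and these allow a look at the same difference with other probes. Suffixes such as _f_at, _r_at and _g_at mark probe sets that can pick up related transcripts or did not meet the usual design rules. Nsdhl has 3, and their differences of neurospheres from R1 cells were 2.08, 2.25 and 1.88. Scd2 has a dimmer probe set at 2.87, with 637, 1451 and 1228 in R1 cells and 8145 in neurospheres. For Scd1 a probe set that had 99.6, 339.9 and 137 in R1 cells and 4958 in neurospheres gave 4.69, above the 3.08 of the brightest one, while the remaining one stayed under the median with 219, 109.9 and 34.8 in R1 cells and 209 in neurospheres. Scd1 and Scd2 are closely related in sequence, so their probes may share transcripts. Fdps showed the largest disagreement. A second bright probe set, with 1649.8, 1999 and 1123 in R1 cells and 6494 in neurospheres, gave 2.16, but the remaining pair gave -0.56 and -0.62, with neurospheres inside the R1 range of each. The brighter of that pair passed the filter through the aggregation array alone, with 287, 90.8 and 36.2 in R1 cells and 43.6 in neurospheres. For Mvk the probe set used is of the _r_at class and the unused one of the _f_at class. The unused one was under the median, at no more than 48.6 in R1 cells and at 218 in neurospheres, a difference of 1.81. Ggps1 gave 0.36 and 0.12, and Elovl6 gave 0.17 and 0.01.

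**Figure D3:**
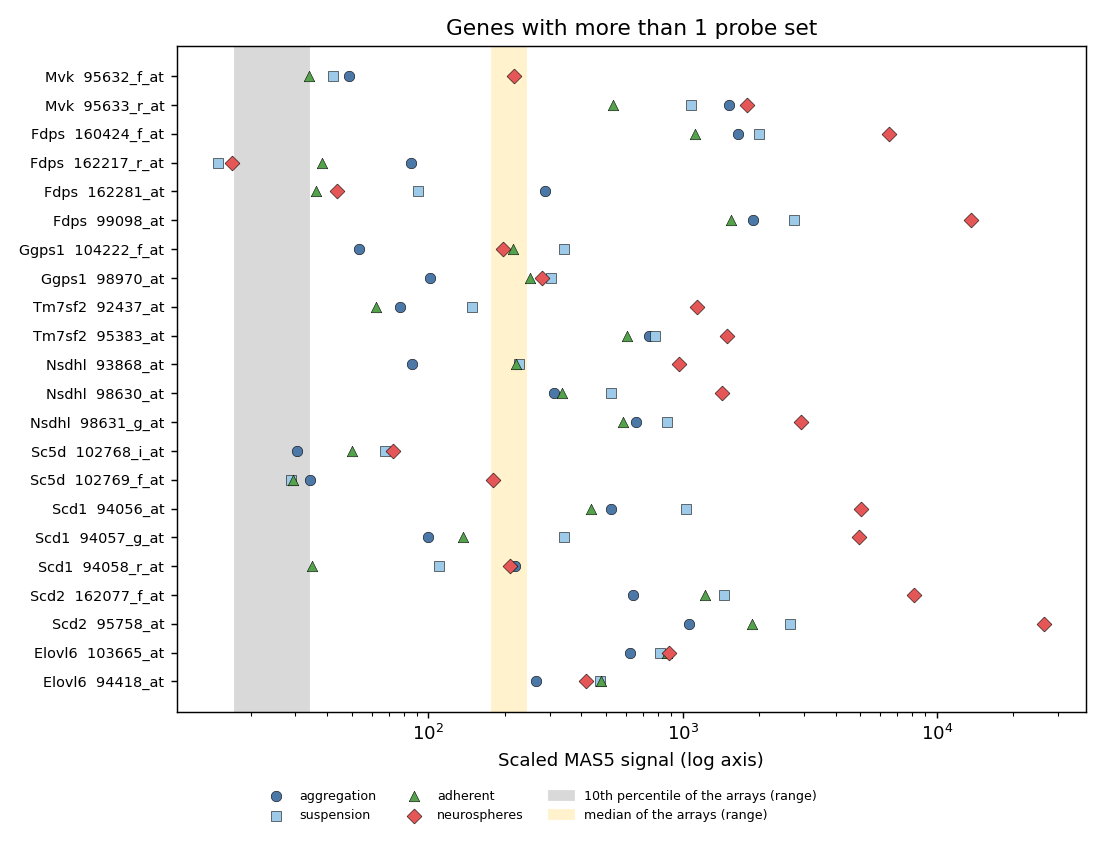
Scaled MAS5 signal (horizontal log axis) on the 4 arrays for each probe set of the genes with more than 1; grey marks the range of the arrays' 10th percentiles and yellow the range of their medians. Of 4 Fdps probe sets, the 2 brighter ones have neurospheres rightmost and the 2 dimmer ones do not.

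Embryoid bodies and adherent R1 cells, which share cell line, medium and LIF, showed no common direction in these genes. The median difference of embryoid bodies from adherent cells was 0.12 over the 25 genes and 0.10 over all features. Scaling to array medians turned it to -0.23, where the median of all features went to -0.25, so the direction of this median rests on the scaling. On both embryoid body arrays, 11 genes lay above adherent cells and 8 below, where 42.2% and 32.7% of features did. Insig1 was the only gene at least 2-fold higher on both, against 6.15% of features, and none was at least 2-fold lower on both, against 2.88%. With 1 embryoid body array left out in turn, 3 genes were at least 2-fold higher each time, while 1 was at least 2-fold lower without the aggregation array and 2 without the suspension array. In the limma fit 0 of the 25 genes were placed in either direction, where 0.263% of features were higher and 0.0877% lower, and nothing is read from that count.

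Single genes stood out by step. Insig1 was 1.34 and 1.50 above adherent cells on the aggregation and suspension arrays. Mvk was 1.47 and 0.98 above and Mvd 1.24 and 0.91 above, so the kinase that acts on mevalonate and the later decarboxylase were brighter on both embryoid body arrays. The dim other probe set of Mvk, under the filter, gave only 0.29 and 0.17. Scaling to array medians lowered the mean difference of Mvk from 1.23 to 0.87 and that of Mvd from 1.07 to 0.74. Cyp51 was below adherent cells by differences of -0.65 and -1.43, Lbr by -1.22 and -0.48, and Elovl5 by -0.91 and -0.41. Dhcr7 and Scd1 were above on both arrays by unequal amounts, 0.34 and 1.34 for Dhcr7 and 0.24 and 1.18 for Scd1. Hmgcs1, Idi1, Ggps1, Scd2, Fads1 and Fasn had adherent cells between the embryoid body arrays. Differences of Acly, Fasn, Srebf1 and Tm7sf2, 0.33, 0.05, 0.29 and 0.32, became -0.03, -0.31, -0.07 and -0.04 with scaling to array medians, and that of Nsdhl, 0.35, became 0.00.

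**Figure D4:**
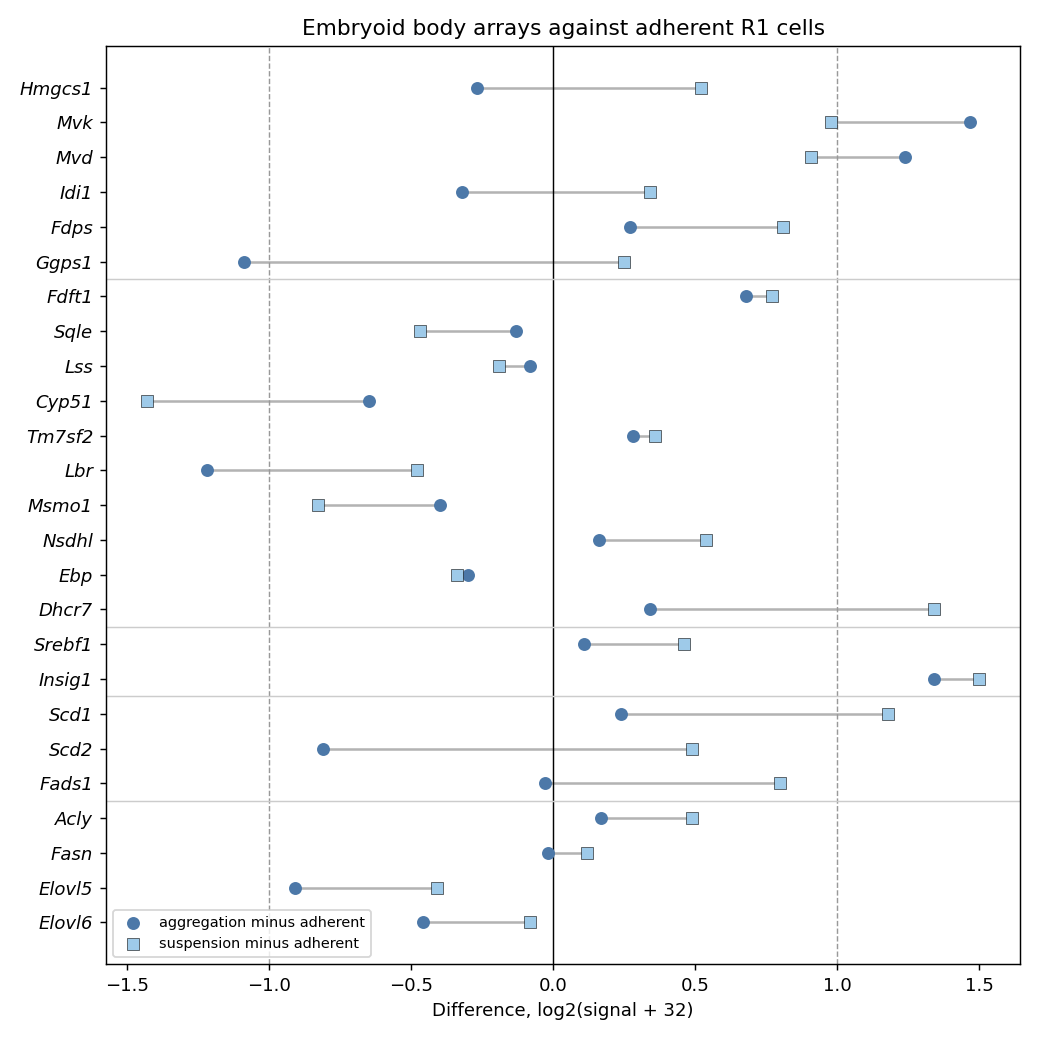
Difference of each embryoid body array from the adherent array on the log2(signal + 32) scale (horizontal axis) for 25 genes in order of step; circles are the aggregation array, squares the suspension array, and dashed lines mark 2-fold. Both points of Insig1 lie beyond the right dashed line, while Hmgcs1, Idi1, Ggps1 and Scd2 have a point on either side of 0.

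The aggregation and suspension arrays gave the spread between arrays of one label. Of the 25 genes, 18 were lower on the aggregation array, where 51.4% of features were, and their median difference was -0.35 against -0.02 for all features. Ggps1 and Scd2 were at least 2-fold lower on it, at -1.33 and -1.30, where 8.02% of features were, and no gene was at least 2-fold higher, where 6.25% were. Desaturases had a median of -0.94 and mevalonate genes of -0.60, while the squalene to cholesterol genes had -0.02.

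Markers of astrocytes and oligodendrocytes, which are named as contaminating cells, are given beside all features, of which 35.0% lay above every R1 array in neurospheres. For the 7 astrocyte markers past the filter, of 8 on the array, the summed signal was 5945, 4524 and 8529.6 in the aggregation, suspension and adherent R1 cells. It was 20925 in neurospheres, where 6 of the 7 were above every R1 array. Of these 6, Gfap, Aqp4, Slc1a2 and Sparcl1 passed the filter through the neurosphere array alone, which favours that count. Aqp4 had 251 in neurospheres and 225 on the suspension array. Mt3 carried much of the summed signal, with 12719 in neurospheres and at most 1135 in R1 cells, and Aldoc had 4279 and at most 599. Gfap, the defining filament of mature astrocytes, was at 130.1, 215 and 143 in R1 cells and 384 in neurospheres. The other Gfap probe set, under the median on every array, had 52.0 in neurospheres, within the R1 range. Gja1 went the other way, with 4219, 2766 and 7346 in R1 cells and 1896 in neurospheres. Its dimmer probe set was also below every R1 array, with 244 in neurospheres and at least 339 in R1 cells. The summed signal of the 6 oligodendrocyte markers past the filter, of 8 on the array, was 1786, 2183 and 970.4 in R1 cells and 2394 in neurospheres, and Mog and Cnp did not reach the median on any array. Of these 6 oligodendrocyte markers, 2 were above every R1 array, Sox10 and Mbp, none by 2-fold, a share near that of all features. Sox10 had 678, 845 and 358 in R1 cells and 1209.9 in neurospheres, and its dimmer probe set was within the R1 range. Mobp, a myelin gene, was below every R1 array with 70.0 against 187 to 213. Mbp, the basic protein of myelin, was at 351, 171 and 103 in R1 cells and 409 in neurospheres, but its other probe set had 310.4, 169 and 118 in R1 cells and 129 in neurospheres. A probe set of Pdgfra, a marker of oligodendrocyte precursors, that is not in that sum had 1394 in neurospheres and at most 161 in R1 cells. The 4 neuron markers past the filter summed to 7319.6 in neurospheres and to 4603 to 6384 in R1 cells, and the 2 microglia markers past it to 1460.1 and to 1316 to 1783. The 4 primitive endoderm markers past the filter summed to 1331 and 973 on the embryoid body arrays and to 2366 in adherent cells, but they split. Lama1 (413 and 101 against 962) and Sparc (364 and 437 against 1148) were lower on the embryoid body arrays. Gata4 (314 and 209 against 90.3) and Dab2 (239.9 and 226 against 165) were higher. Gata6, Afp and Sox17 did not pass the filter. The part of these cells in the lipid gene results was not tested.

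Other genes of lipid metabolism were followed in 4 lists of 110 genes, of which 70 were on the array and 59 passed the filter. Here limma with Benjamini-Hochberg adjustment over all 6843 features was the test for single genes. These lists too were chosen with earlier results of these data known. Their counts beside all features are therefore a description and not an independent test. In neurospheres 15 of the 59 rose and 5 fell at an adjusted p under 0.05, against 8.20% and 11.9% of all features. At an unadjusted p under 0.05 the counts were 23 and 5, against 15.4% and 17.2% of features. In simulated data of this design limma made more false calls than its threshold allows, which bears on every call below. The fit has 1 residual degree of freedom, from the embryoid body pair. With an array of that pair left out, the other and the adherent array were fitted as 1 R1 group. The p-values of those fits rest on the spread between embryoid bodies and adherent cells, so they come from a different model. Leaving out an array of that pair left 9 genes higher and 2 lower without the aggregation array and 12 higher and 2 lower without the suspension array. A fit without the intensity trend called 4 higher, Dbi, Hacd3, Acaa2 and Eci2, and 1 lower, Fntb. Erg28, Abcg1, Lrpap1, Me1, Lpin1, Acadl and Cpt1a did not pass against adherent cells alone, nor did Lrp1 and Acss1 against embryoid bodies alone.

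The list of fatty acid supply, elongation and glycerolipid synthesis had 18 genes tested, of which 7 rose and none fell, against 8.20% and 11.9% of features, at a median difference of 1.41 against 0.10 for all features. Dbi, the binding protein of acyl-CoA, rose most, from 623, 1249 and 671 in the aggregation, suspension and adherent R1 cells to 16996 in neurospheres, a difference of 4.41 ± 0.35 (SE; limma adjusted p = 3.70e-08). Hacd3, a dehydratase of fatty acid elongation, rose from 322, 526 and 484 to 3698, by 2.96 ± 0.39 (adjusted p = 2.35e-05 in limma), and its other probe set gave 3.04. Dbi and Hacd3 were named for the size of their rise, and both lay above every R1 array, as did 35.0% of features. Me1, the malic enzyme that supplies NADPH, rose from 22.1, 92.2 and 129 to 804, by 2.86 ± 0.82 (limma adjusted p = 0.018). Lpin1, a phosphatidate phosphatase, rose from 53.0, 121 and 174 to 648, by 2.15 ± 0.73 (limma adjusted p = 0.0428). Lpin1 did not pass without the aggregation array (1.94, limma adjusted p = 0.152) or without the suspension array (2.36, limma adjusted p = 0.0773). The other 3 that rose, named after their values were seen, were Mid1ip1, a partner of acetyl-CoA carboxylase, and Idh1 and Acss1, which serve NADPH and acetyl-CoA supply, at 2.07, 1.54 and 1.53. Mid1ip1 gave 0.97 with its other probe set, and Acss1 did not pass without the aggregation array (1.47, limma adjusted p = 0.0782). The citrate carrier Slc25a1 and the pentose phosphate enzyme Pgd were at 0.10 and 0.09, near the median of all features. Me1 and Lpin1, which count among the 7, passed the signal filter through the neurosphere array alone. They were thus admitted by the array on which they were high, and nothing is read from their calls.

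Fatty acid oxidation, which breaks down what the described enzymes make, had 18 genes tested, of which 5 rose and none fell, against 8.20% and 11.9% of features, at a median of 0.72. Acaa2, the thiolase of the last mitochondrial step, rose from 436, 808 and 402 in R1 cells to 4136 in neurospheres, by 3.00 ± 0.39 (SE; limma adjusted p = 1.77e-05). Acadl, a long-chain acyl-CoA dehydrogenase, rose from 31.9, 102 and 148 to 844, by 2.76 ± 0.77 (limma adjusted p = 0.0151). Eci2, an isomerase for unsaturated chains, rose from 239, 296 and 272 to 1741, by 2.56 ± 0.46 (limma adjusted p = 5.33e-04). These 3 genes were named because they were called higher, and neurospheres were above every R1 array, as in 35.0% of features. Acadl passed the signal filter through the neurosphere array alone, where it was high, so nothing is read from its call. Hsd17b4, the bifunctional peroxisomal enzyme, rose from 559, 448 and 681 to 1978, by 1.71 ± 0.38 (limma adjusted p = 0.00299). Cpt1a, which brings acyl chains into mitochondria and is named here after its value was seen, rose by 1.19 (limma adjusted p = 0.0194), and without the aggregation array it did not pass (1.02, limma adjusted p = 0.233).

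**Figure D5:**
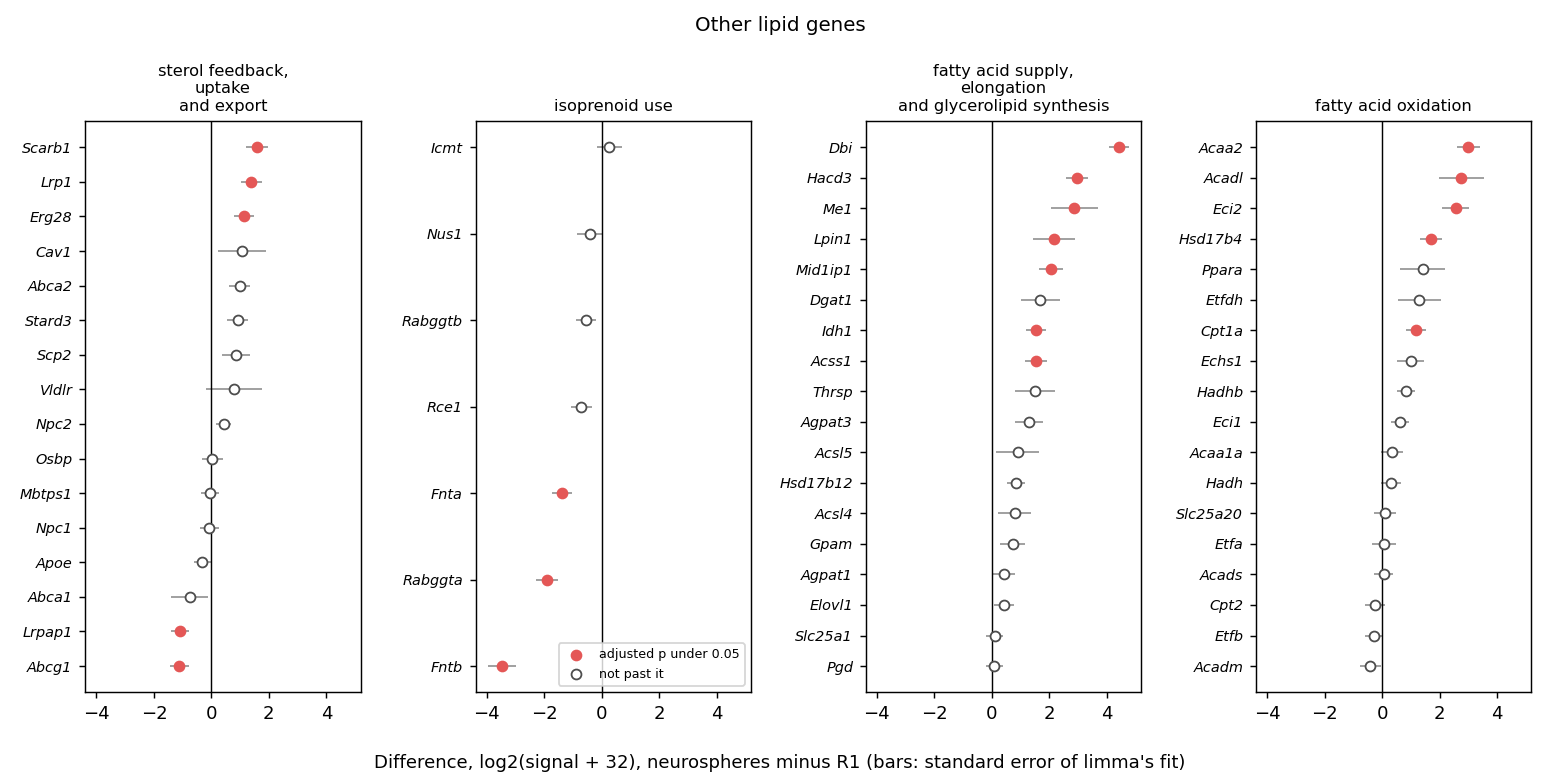
Difference of neurospheres from R1 cultures on the log2(signal + 32) scale (horizontal axes) for the 59 tested genes of the 4 other lipid lists; bars are limma's standard errors and filled points have an adjusted p under 0.05. Filled points lie on the right in the fatty acid supply and oxidation lists, on the left in the isoprenoid list and on both sides in the sterol list.

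The list of sterol feedback, uptake and export had 16 genes tested, of which 3 rose and 2 fell, against 8.20% and 11.9% of all features, at a median of 0.61. The share that fell is near that background. Scarb1, a lipoprotein receptor that takes up cholesterol ester, rose from 588, 969 and 627 in R1 cells to 2136 in neurospheres, by 1.59 ± 0.37 (SE; limma adjusted p = 0.00475). Lrp1, a receptor for particles with apolipoprotein E, rose from 831, 761 and 501 to 1705, by 1.39 ± 0.36 (limma adjusted p = 0.00936). Erg28, thought to tether the sterol demethylation enzymes, rose from 724, 736 and 750.2 to 1656, by 1.13 ± 0.35 (limma adjusted p = 0.0291). Lower in neurospheres was Abcg1, a cholesterol exporter, which fell from 1404, 1594 and 1254 to 612, a difference of -1.12 ± 0.33 (limma adjusted p = 0.021). The receptor chaperone Lrpap1, named after its value was seen, fell from 2736, 2168 and 2069 to 1038, a difference of -1.09 ± 0.30 (limma adjusted p = 0.0141), and its dimmer probe set gave -0.36. Without the aggregation array none of the 5 passed, with limma adjusted p of 0.0667 for Scarb1 (1.42), 0.0824 for Lrp1 (1.42), 0.208 for Erg28 (1.12), 0.17 for Abcg1 (-1.17) and 0.239 for Lrpap1 (-1.01). Without the suspension array Scarb1 passed, while Lrp1 (1.36, limma adjusted p = 0.073), Erg28 (1.13, limma adjusted p = 0.149), Abcg1 (-1.08, limma adjusted p = 0.173) and Lrpap1 (-1.17, limma adjusted p = 0.0879) did not. Apoe, the main apolipoprotein of the brain, was bright throughout and differed by -0.32 (limma adjusted p = 0.472).

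Isoprenoid use, the side branch fed by farnesyl and geranylgeranyl diphosphate, had 7 genes tested, of which 3 fell and none rose, against 11.9% and 8.20% of features, at a median of -0.70. Fntb, the beta subunit of protein farnesyltransferase, fell from 592, 781 and 869 in R1 cells to 41.0 in neurospheres, a difference of -3.46 ± 0.49 (SE; limma adjusted p = 4.08e-05). Rabggta, the alpha subunit of the Rab prenyltransferase, fell from 1006, 726 and 1708 to 298, a difference of -1.91 ± 0.38 (limma adjusted p = 0.0012). The alpha subunit shared by farnesyl and geranylgeranyl transferase, Fnta, fell from 1354, 1210.3 and 1125 to 446, a difference of -1.37 ± 0.35 (limma adjusted p = 0.00846). Fnta did not pass without the aggregation array (-1.33, limma adjusted p = 0.119) or without the suspension array (-1.41, limma adjusted p = 0.061). For all 3 the neurosphere signal was below every R1 signal, while among the genes that supply their substrates Idi1 and the brightest probe set of Fdps were above every R1 signal and Ggps1 was within the R1 range.

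Between embryoid bodies and adherent cells, limma called 0 of the 59 list genes in either direction, against 0.263% of features higher and 0.0877% lower, and at an unadjusted p under 0.05 it placed 5 higher and 6 lower, against 8.51% and 5.86% of features. With scaling to array medians 6 genes were lower at an adjusted p under 0.05, against 5.39% of features, and the median of all features was then -0.25. The brightest genes of each list were close between the cultures. Apoe differed by 0.08, Npc2, a carrier of cholesterol out of lysosomes, by -0.01, Rabggtb by -0.08 and Fnta by 0.18. For fatty acids, Slc25a1 differed by 0.48, Dbi by 0.38, Hadhb of mitochondrial oxidation by -0.28 and Etfb, which passes on its electrons, by -0.31, with limma adjusted p from 0.496 to 0.984 over the 8 genes.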

How the data were processed

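Per the submitters' processing notes the arrays were summarised with MAS5, and the deposited values are signal intensities on a linear scale, 1 per probe set, without detection calls or MAS5 settings in the sources used here. The 2% trimmed mean of every array was set to 500 over its 12422 probe sets that are not controls (of 12488), and 32 was added before log2. Gene names came from the platform annotation, which gives 10833 probe sets 1 gene, 396 several and 1193 none. A probe set was kept where it reached the array's median on at least 1 array (8031), and the brightest per gene was used, leaving 6843 features, 6002 of them named. The R1 level weights embryoid bodies (mean of 2 arrays) and adherent cells (1 array) equally. The limma package (version 3.58.1, R 4.3.3) fitted 3 groups with an intensity trend, 1 residual degree of freedom and 17.34 prior degrees of freedom, at a Benjamini-Hochberg adjusted p of 0.05. In simulated data of this design the fit made more false calls than that threshold allows. The p-values of this fit measure only the spread between the embryoid body arrays. With an embryoid body array left out, the other was fitted with the adherent array as 1 R1 group. The p-values then measure the spread between those 2 cultures. No depth applies to arrays, and their number limits the precision.

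The 34 genes and all lists were chosen with earlier results of these data known. Per-array signals are given for genes at least 2-fold from every R1 array in neurospheres or, on both embryoid body arrays, from adherent cells, for named pairs and for contrasts within a step. From each other lipid list up to 4 called genes were named by size, or the 2 brightest where none was called, and any others are marked as named after their values were seen. Marker lists covered pluripotent, neural stem, astrocyte, oligodendrocyte, neuron, microglia and primitive endoderm genes. Other scalings, added constants, filters, probe set rules, references and left-out arrays were tried.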

Additional observations from a re-analysis of the deposited data

How the results depend on the processing

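The median difference of the sterol and fatty acid genes between neurospheres and R1 cells, 1.63, was 1.48 with embryoid bodies alone as reference, 1.38 with scaling to array medians, 1.57 to 1.72 with an embryoid body array left out, and 1.54 to 1.68 under the other settings. The count of genes 2-fold above every R1 array, 15, was 19 against the adherent array alone and stayed between 13 and 15 under the other settings. The count 2-fold below, 0, was 1 against adherent cells alone and 0 to 1 with an embryoid body array left out. For embryoid bodies against adherent cells the median of 0.12 became -0.23 with scaling to array medians and -0.03 to 0.46 with an array left out. The 1 gene 2-fold higher there became 2 with 1 added before log2, 0 with 100 added, and 3 to 3 with an array left out, and the 0 genes 2-fold lower became 1 to 2. The lipid list genes that rose in neurospheres, 15, numbered 4 in a limma fit without the intensity trend and 9 to 12 with an array left out. Those that fell, 5, numbered 3 against adherent cells alone, 1 without the trend and 2 to 2 with an array left out. Between embryoid bodies and adherent cells 6 list genes were lower with scaling to array medians, against 5.39% of features, and leaving out an array gave no value because no residual degree of freedom remained. The median of all features moved from 0.10 to -0.13 for neurospheres and from 0.10 to -0.25 for embryoid bodies with that scaling. The causes were not tested. Of the single-gene values under the alternatives, 672 kept their call or stayed within the spread of the embryoid body arrays, 101 moved beyond that spread, 50 lost their call, and none was called in the opposite direction. Many of the 672 could not move, because changes of filter or probe set rule leave the values of most described genes with 1 probe set as they were. That count is therefore no measure of robustness. No paired analysis was possible because the groups share no replicate numbers in the labels and neurospheres and adherent cells have 1 array each. Dim probe sets, near the 10th percentile of an array, give bounds rather than levels.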
